A study of Mus musculus with 10 samples.

Results

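The genes described here encode the proteins that end the light response of rod and cone photoreceptors and reset it through calcium: Grk1, Rgs9, Rgs9bp, Rcvrn, Guca1a, Guca1b, Gucy2e, Gucy2f, Slc24a1 and Pdc. They were taken by symbol from a table of 25905 genes measured in mouse retina, and all 10 were listed once. All 10 passed the filter on low values (a mean of at least 1 CPM, a read count scaled to library size, over all libraries), which left 14210 genes for testing.

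In the dark, cyclic GMP holds the cation channels of the outer segment open, and light closes them by way of rhodopsin, the G protein transducin and a phosphodiesterase that breaks cyclic GMP down. Recovery needs rhodopsin to be phosphorylated by the kinase GRK1 and capped by arrestin, and transducin to be switched off by RGS9, which works bound to Gnb5 and to its membrane anchor Rgs9bp. The exchanger Slc24a1 goes on pumping calcium out while the channels are shut, and the fall in calcium releases GRK1 from recoverin (Rcvrn) and lets the activating proteins Guca1a and Guca1b stimulate the guanylate cyclases Gucy2e and Gucy2f, which make new cyclic GMP. Phosducin (Pdc) binds the beta and gamma subunits of transducin.

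The 10 libraries came from the left and the right retina of 5 wild type C57BL/6J mice, numbered 61, 64, 65, 66 and 68, at postnatal day 34. Every mouse was anaesthetised with ketamine and xylazine at postnatal day 24 and then wore a −20 dioptre lens, which drives the growing eye towards myopia, in front of 1 eye for 10 days, while its other eye had no lens. Labels give a retina's side but not the side of the lens, so the groups were 5 left and 5 right retinas, and no library could be called treated or control. Stranded libraries were made from total RNA depleted of ribosomal RNA.

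The listed genes of a library summed to 321661 to 346696 CPM, or about 29692163 to 37260523 counts by the step between low values, and 1 CPM stood for 89.7 to 113.8 counts. All 6 rod markers were present in every library, at a summed 9411 to 11062 CPM. Right retina of mouse 65 stood apart with 761.8 CPM of lens transcripts, against 6.83 to 106.2 CPM in the other libraries, and left retina of mouse 68 with 54.4 CPM of skeletal muscle transcripts, against 1.18 to 2.98 CPM. For the right retina of mouse 64 the labels report a damaged file of reverse reads, so that its raw files differ in read number. A whole retina holds many cell types, and fewer photoreceptors could not be told apart from less RNA per photoreceptor.

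Levels of different genes were set side by side as CPM per kilobase of exon. Pdc was the most abundant transcript, at 233.3 ± 30.8 CPM per kilobase (SD over 10 libraries), followed by Rcvrn at 162.8 ± 14.1 and Guca1a at 122 ± 14.6. Slc24a1 (72.2 ± 4.51) and Grk1 (64.96 ± 3.26) came next, then Guca1b at 41.2 ± 3.08, Rgs9 at 31.0 ± 1.12 and Rgs9bp at 28.0 ± 1.11. The guanylate cyclases, the enzymes that the 2 activators serve, were lowest, with Gucy2e at 20.1 ± 1.09 and Gucy2f at 17.9 ± 0.838 CPM per kilobase. The small calcium sensors Rcvrn and Guca1a thus stood several fold above the large membrane cyclases, while the sensor Guca1b lay closer to them.

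Each gene in that order lay above the next one in 10 of 10 libraries. Over libraries the ranges of Pdc and Rcvrn, of Rcvrn and Guca1a, of Slc24a1 and Grk1, and of Gucy2e and Gucy2f overlapped, so those neighbours kept their order within libraries but not beyond their spread. The order depended in part on the length used. Per kilobase of the longest transcript, Rgs9 measured 57.1, Guca1b 60.3, Gucy2e 22.2 and Grk1 76.8, which put Grk1 above Slc24a1.

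**Figure D1:**
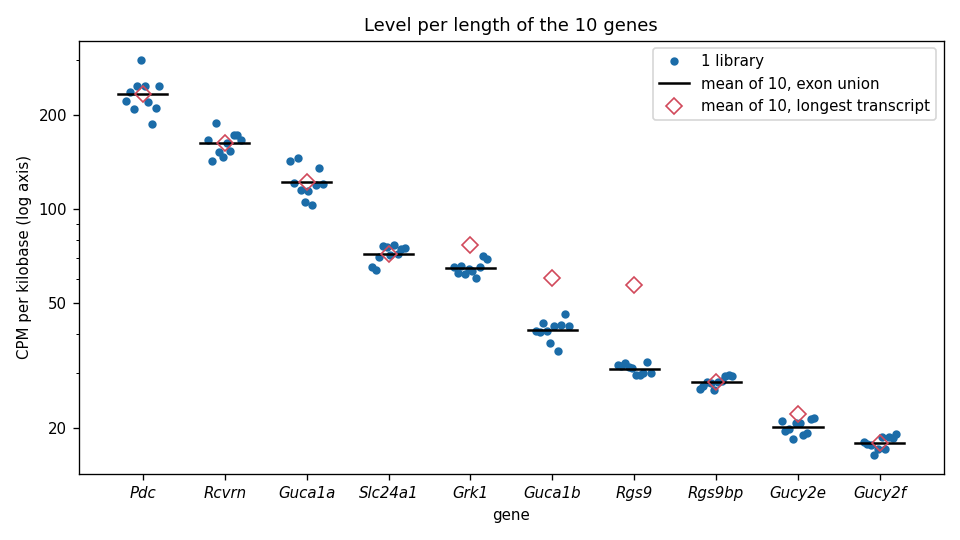
Level of each of the 10 genes in CPM per kilobase of exon on a log axis, with a point for each of the 10 libraries and a bar for the mean. Pdc at 233.3 lies highest and Gucy2f at 17.9 lowest.

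The members lie on 7 chromosomes, and coordinates are those of GRCm38. Grk1 is at chr8:13405081-13421951, Slc24a1 at chr9:64922861-64951607, Rgs9bp at chr7:35578993-35585582, Pdc at chr1:150319417-150333906 and Gucy2f at chrX:142081160-142196931. Chromosome 11 holds Rgs9 (109225355 to 109298129), Rcvrn (67695326 to 67703333) and Gucy2e (69218117 to 69237036). On chromosome 17 Guca1a (47394558 to 47400584, minus strand) and Guca1b (47385393 to 47392967, plus strand) point at each other, with 1590 bases between their 3′ ends.

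Sharing of reads with other genes was small where it could be checked on the sequence. No 50-base run of 8 members' exons occurred in another gene, and the shares were 2.92% for Grk1 and 1.20% for Rgs9. The longest run shared by Gucy2e and Gucy2f was 20 bases, and by Guca1a and Guca1b 14 bases. The predicted gene Gm37764, at 28.9 to 47.9 CPM, lies inside Pdc on the same strand. Pdc is among the 8 members without a shared 50-base run, but how reads from the overlap were assigned is not known. Rcvrn lies inside Glp2r, which is on the opposite strand and at 0.558 to 0.897 CPM.

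RefSeq (GRCm38.p6) gave the start region of 7 members, from 250 bases before to 50 after the start. They were searched on both strands for TAATCC, which reads GGATTA on the other strand, the core of the motif bound by CRX, a homeodomain factor of photoreceptors. It was found in 3 of the 7, the cyclases Gucy2e and Gucy2f and their activator Guca1a, and not in Pdc, Grk1, Slc24a1 or Rgs9. Over all 32851 start regions of that length in the table, 7.06% held it. The 110 bases before the start are shown for these 3 genes, with the motif in capitals, and for Pdc, the member whose level varied most between libraries:
Gucy2e (chr11:69237023-69237132, minus strand): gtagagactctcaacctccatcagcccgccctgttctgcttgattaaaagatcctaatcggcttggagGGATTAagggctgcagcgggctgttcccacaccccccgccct
Guca1a (chr17:47400607-47400716, minus strand): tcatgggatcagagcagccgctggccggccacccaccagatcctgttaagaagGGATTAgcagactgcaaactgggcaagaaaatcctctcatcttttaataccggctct
Gucy2f (chrX:142196937-142197046, minus strand): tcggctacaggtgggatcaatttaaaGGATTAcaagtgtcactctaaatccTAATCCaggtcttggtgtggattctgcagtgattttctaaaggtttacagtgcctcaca
Pdc (chr1:150319307-150319416, plus strand): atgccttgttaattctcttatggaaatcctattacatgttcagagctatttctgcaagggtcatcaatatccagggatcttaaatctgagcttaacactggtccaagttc

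With bases before the start counted backwards from −1, the motif began at base −42 in Gucy2e, −57 in Guca1a, and −84 and −59 in Gucy2f, the only member of the 7 with a pair of them. Part of the site of NRL, the leucine zipper factor of rods, was searched as TGCTGA, which reads TCAGCA on the other strand. Grk1 held it from base 29 after the start and Rgs9 from base −147, against 19.5% of all start regions. A match of letters is a description and does not show that a factor binds there.

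Of the kinase and its calcium sensor, Grk1, which phosphorylates activated rhodopsin, measured 573, 578, 567, 528 and 623 CPM in the left retinas of mice 61, 64, 65, 66 and 68, and 548, 547, 559.7, 573 and 610.2 CPM in their right retinas. Both retinas of mouse 68 were the highest, and the sides overlapped. The means were 573.7 ± 33.8 CPM (left) and 567.6 ± 26.1 CPM (right; SD, n = 5 each). Right minus left was −0.01 on the log2(CPM + 1) scale (95% interval −0.10 to 0.07).

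Rcvrn, which holds GRK1 inactive while calcium is high, measured 173, 197, 153, 159.6 and 180.35 CPM in the left retinas of the mice in that order, and 149, 158, 170.0, 180.1 and 174 CPM in the right ones. Mice 61, 64 and 68 were higher on the left and mice 65 and 66 higher on the right, and the sides overlapped. The mean difference, right minus left, was −0.05 log2 units (95% interval −0.20 to 0.10).

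Rgs9, which speeds the shutoff of transducin, ranged from 189 to 208 CPM in left and from 189 to 201 CPM in right retinas, with means of 200.9 ± 7.62 and 194.7 ± 5.81 CPM. Its anchor Rgs9bp ranged from 174 to 194 CPM in left and from 179 to 194 CPM in right retinas, with means of 183.0 ± 8.34 and 187 ± 6.45 CPM. These 2 genes had the smallest spread of the 10, with coefficients of variation of 3.62% and 3.94% over all libraries. Right minus left was −0.04 for Rgs9 (95% interval −0.12 to 0.03) and 0.03 for Rgs9bp (−0.04 to 0.10).

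Guca1a, a calcium-sensing activator of the cyclases, measured 125, 127, 92.1, 89.9 and 118 CPM in the left retinas of mice 61, 64, 65, 66 and 68, and 106, 101, 99.9, 105 and 106 CPM in the right ones. The left retinas fell into a high set (mice 61, 64 and 68) and a low set (mice 65 and 66), while all right retinas lay between these sets. Left retinas averaged 110.4 ± 18.0 CPM and right retinas 103 ± 2.83 CPM. The difference between the sides was −0.08 (95% interval −0.24 to 0.08).

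Guca1b, the second activator, measured 99.98, 106, 91.3, 86.2 and 113 CPM in the left retinas and 98.8, 99.4, 104, 104 and 104 CPM in the right ones, in the same order of mice. Here too mice 65 and 66 were the lowest on the left, and their right retinas were higher. Its means were 99.3 ± 10.8 and 102 ± 2.57 CPM, and right minus left was 0.04 (95% interval −0.08 to 0.17).

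The cyclase Gucy2e ranged from 174 to 196 CPM in left and from 169 to 198 CPM in right retinas, and Gucy2f from 139 to 151 and from 133 to 155 CPM. Means on the left and the right were 187 ± 9.08 and 182 ± 11.3 CPM for Gucy2e and 144 ± 4.83 and 147 ± 8.59 CPM for Gucy2f. The sides overlapped for both genes. Right minus left was −0.04 for Gucy2e (95% interval −0.12 to 0.04) and 0.03 for Gucy2f (−0.06 to 0.12).

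Slc24a1, the sodium, calcium and potassium exchanger of the rod outer segment, measured 342, 366, 394, 401 and 389 CPM in the left retinas and 333, 398, 372, 375 and 393 CPM in the right ones, in the order of mice 61, 64, 65, 66 and 68. Both retinas of mouse 61 lay below all other libraries, and the sides overlapped. Its right retinas differed from the left by −0.01 (95% interval −0.10 to 0.07).

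Pdc measured 743, 702, 1005, 737 and 708 CPM in the left retinas and 796, 831, 831, 629 and 833 CPM in the right ones. Left retina of mouse 65 was the highest of all libraries and right retina of mouse 66 the lowest. Its coefficient of variation over the 10 libraries was 13.2%, the largest of the members, followed by Guca1a at 11.9% and Rcvrn at 8.66%. The members' median was 5.84%, beside 4.94% over the 393 genes of at least 100 CPM. Right minus left was 0.01 for Pdc (95% interval −0.16 to 0.19).

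**Figure D2:**
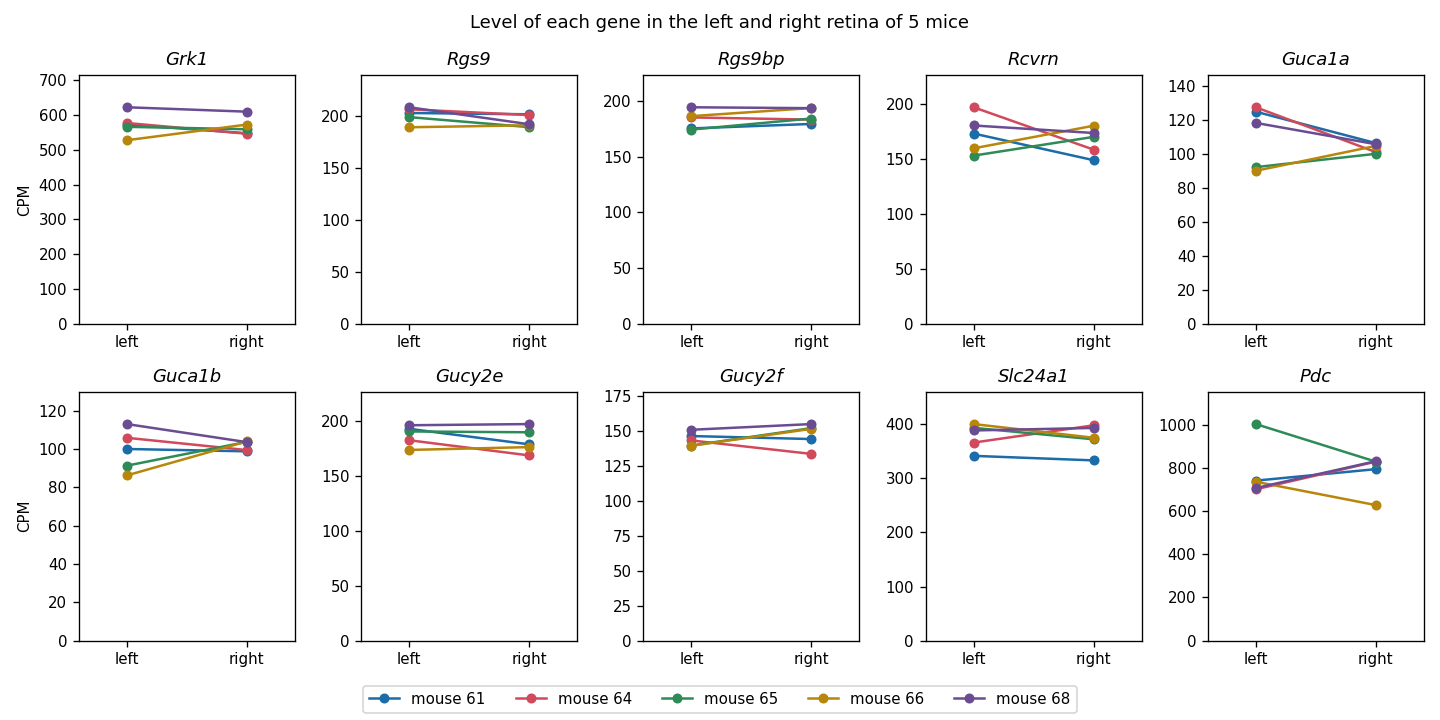
Level of each of the 10 genes in CPM in every library, with the left and the right retina of each mouse joined by a line. The lines of Guca1a, Guca1b and Rcvrn run up in mice 65 and 66 where the line of Pdc runs down, from 1005 to 831 CPM in mouse 65.

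Right against left was tested with limma over all 14210 genes, with the mouse as a block. Of the members, 0 of 10 passed the threshold of 0.05 (limma adjusted p = 0.9996 for each), as did 0% of all tested genes. At an unadjusted p under 0.05 there were 0 of 10 members, beside 2.34% of all genes, and 0 of 10 had the same sign in 5 of 5 mice, beside 4.79% of all genes. On the right 4 members were higher and 6 lower, with a median difference of −0.01, and over all genes 7266 were higher and 6944 lower, with a median of 0.00. The widest interval, that of Pdc, ran from −0.16 to 0.19 log2 units, and the narrowest, that of Rgs9bp, from −0.04 to 0.10. Without mice 65 and 68, which hold the libraries with lens and muscle transcripts, 0 of 10 members passed as well.

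**Figure D3:**
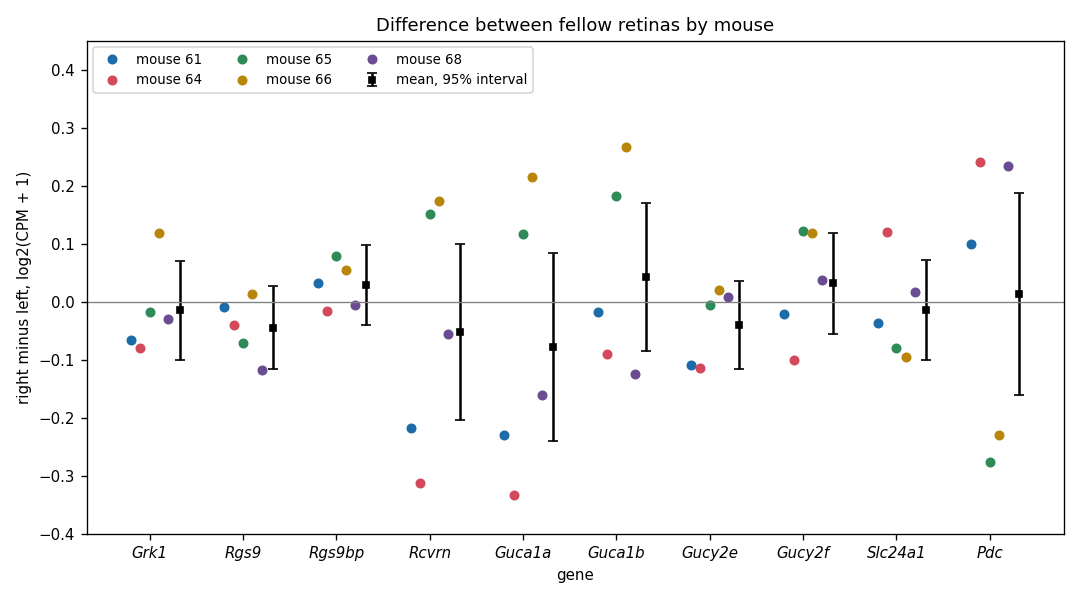
Right minus left of each gene on the log2(CPM + 1) scale, with a point for each mouse, the mean over 5 mice and its 95% interval from limma. All 10 intervals span 0, and the points of Pdc, Guca1a, Rcvrn and Guca1b are spread most widely.

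Since either eye may have worn the lens, the size of the difference between fellow eyes was also described whatever its sign. The mean size over 5 mice was 0.22 log2 units for Pdc, 0.21 for Guca1a, 0.18 for Rcvrn and 0.14 for Guca1b. The other 6 members lay between 0.04 (Rgs9bp) and 0.08 (Gucy2f). The members' median was 0.07, the same to 2 decimals as that of genes of at least 100 CPM, and it was 0.11 over all tested genes.

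Of the 4 genes with the largest differences, Pdc moved against Guca1a, Guca1b and Rcvrn. Right minus left of Pdc was 0.10, 0.24, −0.27, −0.23 and 0.23 log2 units in mice 61, 64, 65, 66 and 68. For Guca1a it was −0.23, −0.33, 0.12, 0.22 and −0.16, and for Guca1b −0.02, −0.09, 0.18, 0.27 and −0.12. Rcvrn had −0.22, −0.31, 0.15, 0.17 and −0.06. The eye of a mouse with more Pdc thus had less Guca1a, Guca1b and Rcvrn in 5 of 5 mice. Grk1, Rgs9, Rgs9bp and Gucy2f had the sign opposite to Pdc in 4 mice, Gucy2e in 3 and Slc24a1 in 1. Genes of the partner and pathway lists described below also had the opposite sign in 5 of 5 mice. Among them were Sag, Arr3, Gnb5, Unc119, Cngb1, Pde6b, Gnb3, Nrl, Otx2 and Mef2d, so the opposition was not particular to the members. Neurod1, Gngt1, Cnga1 and Pde6a of these lists had the signs of Pdc in 5 of 5 mice. This pattern was seen in the values and not tested.

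The base composition of transcripts moved with it. GC content of the longest transcript was lowest in Pdc (37.8%) and highest in Guca1b (55.9%), Guca1a (55.7%) and Rcvrn (53.9%), and the other 6 members lay between 42.0% (Gucy2f) and 52.6% (Gucy2e). Across 14032 genes with a known GC content, Spearman's rho of right minus left with GC content was −0.40, −0.32, 0.27, 0.25 and −0.21 in mice 61, 64, 65, 66 and 68. Over the 10 members rho was −0.66, −0.62, 0.60, 0.68 and −0.71. These are descriptions across genes of the same pair of libraries, which are not independent replicates. The fellow eye with more Pdc was in each mouse the eye in which GC-poor genes were higher relative to GC-rich ones.

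The shift was small over all genes. In mouse 61 the median right minus left was 0.03 in the 20% of genes with the lowest GC content and −0.12 in the 20% with the highest, and in mouse 66 it was −0.02 and 0.08. After each library was corrected for GC content and length, an alternative chosen after the data were seen, rho over all genes lay between −0.03 and 0.00. So small a rho follows from the correction itself, which was fitted on the same genes. The mean size of the difference between fellow eyes then was 0.17 for Pdc, 0.11 for Guca1a, and 0.09 for Rcvrn and Guca1b. The members' median was 0.09 under that correction and that of genes of at least 100 CPM 0.06, so the median size over the members rose while these 4 fell. Rcvrn still had the sign opposite to Pdc in 5 of 5 mice, Guca1a in 4 and Guca1b in 3, and over the members rho was −0.20, −0.33, 0.35, 0.56 and −0.48. Whether GC content, lens wear or another difference between the eyes sets the pattern was not tested.

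**Figure D4:**
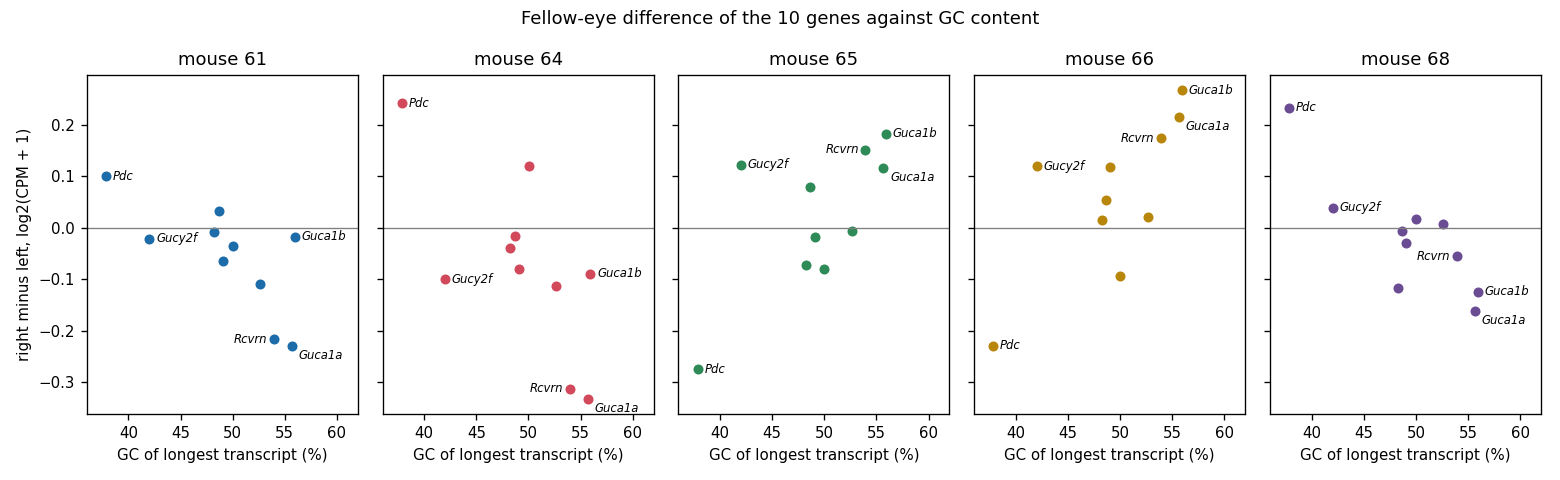
Right minus left on the log2(CPM + 1) scale against GC content of the longest transcript (in percent), with a panel for each mouse and a point for each of the 10 genes. The points of Pdc, at 37.8% GC, lie above 0 in mice 61, 64 and 68 and below 0 in mice 65 and 66, and Guca1a, Guca1b and Rcvrn lie on the other side of 0 in every panel.

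Ratios between the transcripts of proteins that work as partners, or stand in for each other, cancel the scaling of a library. Of such ratios 9 were compared between fellow eyes by an exact two-sided sign-flip test, whose smallest possible p with 5 mice is 0.063, adjusted over the 9 ratios. None passed, and 3 went the same way in 5 of 5 mice.

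The ratio of Guca1a to Guca1b in CPM was 1.25, 1.20, 1.01, 1.04 and 1.05 in the left retinas of mice 61, 64, 65, 66 and 68, and 1.08, 1.02, 0.963, 1.01 and 1.02 in the right ones. In 5 of 5 mice the right retina had the lower ratio, by most in mice 61 and 64, and the sides overlapped. The means were 1.11 ± 0.108 and 1.02 ± 0.0401, a difference of −0.12 log2 units (exact sign-flip p = 0.063, adjusted p = 0.188). The mean ratio was 2.97 ± 0.254 per kilobase of exon and 2.03 ± 0.174 per kilobase of the longest transcript, so the transcript of Guca1a was the more abundant one.

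The ratio of Gucy2e to Gucy2f was 1.32, 1.28, 1.37, 1.25 and 1.30 in the left retinas and 1.24, 1.27, 1.25, 1.17 and 1.28 in the right ones. Again the right retina was lower in 5 of 5 mice, and the sides overlapped. The difference was −0.07 log2 units (exact sign-flip p = 0.063, adjusted p = 0.188), and the mean ratio per kilobase of exon was 1.12 ± 0.0473.

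The ratio of Rgs9bp to Rgs9 was 0.865, 0.898, 0.877, 0.986 and 0.933 on the left and 0.890, 0.913, 0.974, 1.01 and 1.01 on the right. It was higher on the right in 5 of 5 mice, with overlap between the sides. The difference was 0.07 log2 units (exact sign-flip p = 0.063, adjusted p = 0.188), and the ratio was 0.907 ± 0.0541 per kilobase of exon but 0.492 ± 0.0293 per kilobase of the longest transcript. With correction for GC content and length the differences of these 3 ratios were −0.11, −0.05 and 0.07, with adjusted p of 0.281, 0.900 and 0.281 by the same exact test. Under that correction Guca1a to Guca1b was still lower and Rgs9bp to Rgs9 still higher on the right in 5 of 5 mice, but Gucy2e to Gucy2f was lower in only 2 of 5.

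Of the other 6 ratios, Grk1 to the rod arrestin Sag was 0.497 ± 0.0378 and higher on the right in 4 of 5 mice (0.10, exact sign-flip p = 0.125, adjusted p = 0.281). Grk1 to Rcvrn was 3.38 ± 0.232, Rgs9 to Gnb5 1.53 ± 0.116 and Slc24a1 to the rod channel subunit Cnga1 2.88 ± 0.137, with differences of 0.04, −0.04 and −0.02. Grk1 to Rcvrn, which also joins members, was higher on the right in 3 of 5 mice. Against transducin alpha (Gnat1), Rgs9 stood at 0.0892 ± 0.00471 and Pdc at 0.353 ± 0.0531. The last of these varied most, with a coefficient of variation of 15.03%, and differed by 0.04 between the sides (exact sign-flip p = 0.75, adjusted p = 0.812).

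**Figure D5:**
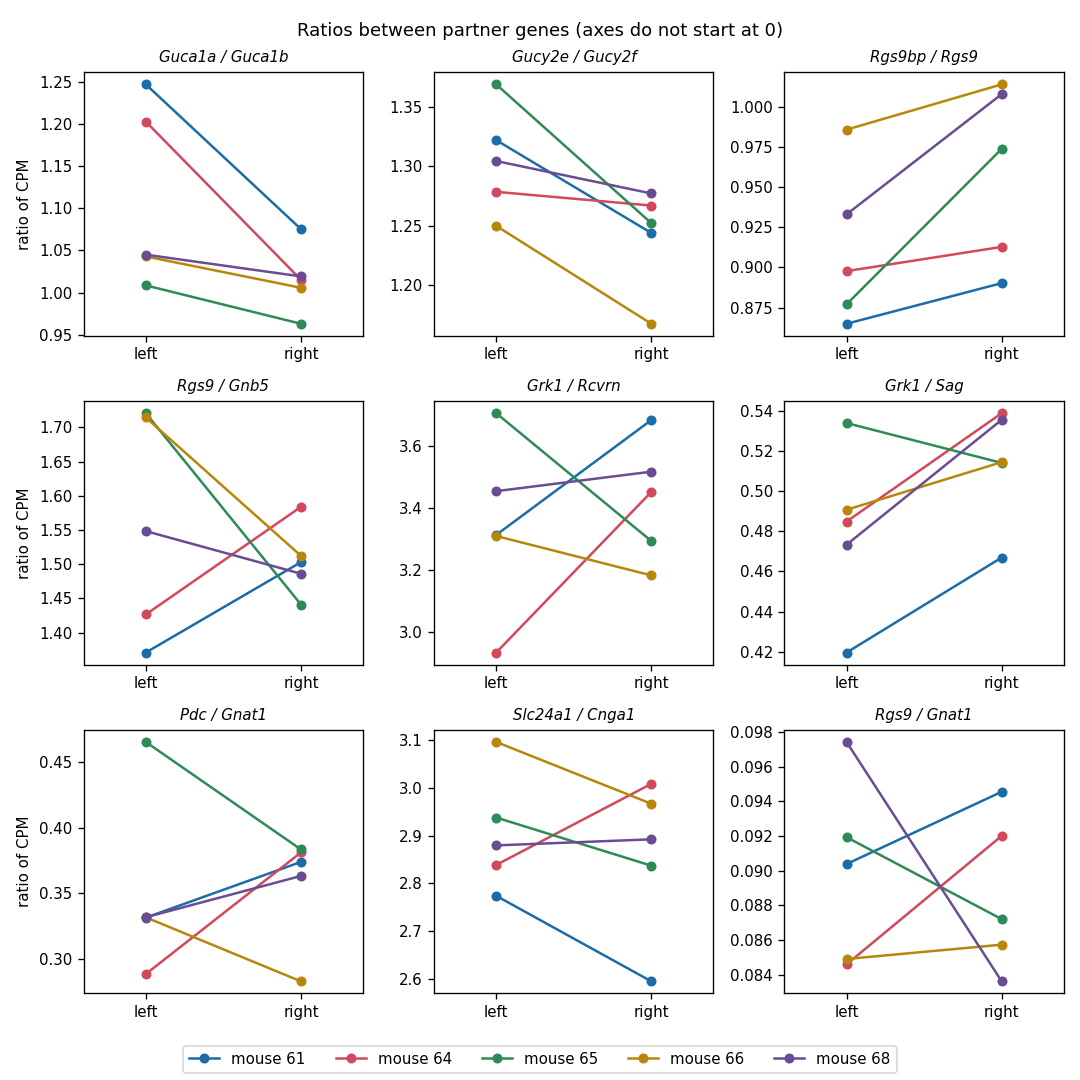
Ratios of CPM between partner genes in the left and the right retina of each mouse, joined by a line; the axes do not start at 0. Guca1a to Guca1b and Gucy2e to Gucy2f fall from left to right in 5 of 5 mice, and Rgs9bp to Rgs9 rises in 5 of 5.

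Mice were compared with each other by limma's moderated F-test, against the spread between fellow eyes. Of the members 0 of 10 passed after adjustment over all genes, where 81 of 14210 genes (0.57%) did. Before adjustment 2 of 10 members passed 0.05, beside 13.8% of all genes. These were Slc24a1 (limma adjusted p = 0.33) and Gucy2e (limma adjusted p = 0.352). Slc24a1 spanned 0.21 log2 units between the highest mouse mean (68) and the lowest (61), and Gucy2e 0.17. Pdc had the widest span, 0.42 between mice 65 and 66, but its fellow eyes also differed most (limma adjusted p = 0.394). The spans of Pdc and Slc24a1 rested on single mice. That of Pdc was 0.17 without mouse 65 and 0.26 without mouse 66, and that of Slc24a1 was 0.03 without mouse 61. The span of Gucy2e lay between 0.12 and 0.17 with a mouse left out. With correction for GC content and length 7 of 10 members had an unadjusted p under 0.05, beside 17.2% of all genes under the same correction, and 0 passed after adjustment by limma.

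The share of a gene's sum of squares that lay between mice was 81.6% for Rgs9bp, 79.6% for Slc24a1, 77.3% for Gucy2e and 72.3% for Grk1. It was lowest for Rcvrn, at 26.8%, with 68.3% left after mouse and side. The median over all tested genes was 56.1% for mouse and 3.33% for side. Side took at most 20.2% in a member, in Rgs9. The shares were not adjusted for the number of mice and sides. With more mice than sides, mouse takes on average the larger share even where neither has an effect. The shares therefore describe the spread and do not show an effect of mouse. No member passed limma's F-test between mice after adjustment.

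The partners of these genes were described from a list of 10, among them the arrestins Sag and Arr3, Gnb5, the cyclase trafficking factor Rd3, Unc119, which carries lipid-modified transducin, and the exchangers Slc24a2 and Slc24a4. All 10 were tested, 1 was higher and 9 lower on the right, the median difference was −0.01, and limma called 0. Sag was at 1202 ± 138 CPM in left and 1106 ± 60.0 CPM in right retinas. It was lower on the right in mice 61, 64 and 68 and higher in mice 65 and 66, the same division as for Guca1a. Right minus left of Sag was −0.11 log2 units (SE 0.05, 95% interval −0.23 to 0.0045, limma adjusted p = 0.9996). Arr3, the cone arrestin, was at 45.6 CPM and Gnb5 at 129.9 CPM over all libraries.

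On the right 3 of 9 genes of the rod activation list were higher and 6 lower, 5 of 9 of the cone activation list were higher and 4 lower, and limma called 0 in both, between the sides and between mice. Of 6 photoreceptor transcription factors 0 passed between the sides and 1 passed between mice. That gene was Nr2e3, which represses cone genes in rods. It ranged from 104.8 to 131.5 CPM in mice 61 and 65 and from 160.4 to 210.5 CPM in mice 64, 66 and 68, a span of 0.84 log2 units between mouse means (limma adjusted p = 0.00433).

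The members did not vary as 1 block. Pearson's r of each member with the mean of the other 9, over 10 libraries that come from 5 mice and share the GC shift, was 0.92 for Grk1, 0.73 for Guca1b, 0.67 for Gucy2e, 0.52 for Rcvrn and 0.50 for Gucy2f. It was 0.39 for Guca1a, 0.34 for Rgs9 and 0.29 for Rgs9bp, and below 0 for Slc24a1 (−0.15) and Pdc (−0.45). These values depended on the scaling and on single mice. With TMM scaling r was 0.40 for Slc24a1, 0.10 for Guca1a and −0.20 for Pdc, and with equal totals over the listed genes it was 0.02 for Guca1a. With correction for GC content and length r was 0.19 for Gucy2f and −0.16 for Pdc. Without mice 65 and 68 it was 0.83 for Guca1a, and without mouse 66 it was 0.05 for Rgs9, 0.15 for Guca1a and −0.72 for Pdc. Among 6011 genes of at least 10 CPM, those most like the mean of the members were Acp2 (a lysosomal acid phosphatase, r = 0.90), Eno1 (a glycolytic enolase, 0.86), Eme2 (a subunit of a DNA nuclease, 0.85), Eno1b (0.85) and Cycs (cytochrome c, 0.85). Eno1b is a near-identical copy of Eno1, so the division of reads between them is uncertain.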

How the data were processed

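The deposited values are CPM with 0.0001 added to each, read from the values because the unit is not stated in the sources used here. The submitters' processing notes name STAR, Partek and GRCm38 (mm10), while the counting rule, filters and versions were not given in these sources. Of the low values, up to 20 steps, 90.4% to 91.4% were whole multiples of a step within a tolerance of 0.1, too few for a count model. Values are not divided by gene length except where stated.

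The 14210 genes averaging 1 CPM or more were tested on log2(CPM + 1) with limma 3.58.1 in R 4.3.3, with an expression trend and the mouse as a block, two-sided, and p-values were adjusted over these genes by Benjamini-Hochberg (threshold 0.05). A fold on this scale understates the change of weakly expressed genes. The pairing comes from the labels, since fellow eyes share a mouse, and the correlation of fellow eyes' deviations was 0.607 in mouse 61 and 0.143 to 0.311 in the others. Ratios, lengths and sequences were computed with Python 3.11.15, GENCODE M21 and RefSeq tables. All 10 members, their partner lists and the 5 genes most like them were named whatever their result, predicted genes apart; a gene counted in the partner list is not reported here by name. The members and lists were chosen with earlier results of these data known. Alternatives were another pseudocount, filter and scaling, no block, each mouse left out, mice 65 and 68 left out, and a correction for GC content and length.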

Additional observations from a re-analysis of the deposited data

Results flagged for a closer look

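A value far from the others was looked for in 48 sets of 5 values. They held members' levels or ratios in the left or the right retinas, or a member's right minus left differences over the mice. About 1 set in 20 is marked by chance. There were 3, all of Pdc. In the left retinas Pdc had 1005 CPM in mouse 65 beside 702 to 743 CPM in the remaining mice, so the gap took 0.867 of the range. In the right retinas it had 629 CPM in mouse 66 beside 796 to 833 CPM in the remaining mice, a gap of 0.819 of the range. The ratio of Pdc to Gnat1 in the right retinas was 0.283 in mouse 66 and 0.363 to 0.383 in the others, a gap of 0.822 of the range of the log2 ratios (the gaps in CPM are on the linear scale).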

How the results depend on the processing

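Of the members 0 of 10 passed between the sides under all 13 alternatives (smallest limma adjusted p 0.985), and without the mouse as a block limma called 0 of all genes, with 188 at an unadjusted p under 0.05. Without the block no ratio passed (adjusted p = 0.411 for the 3 that went the same way in every mouse). The 81 genes called between mice became 155 with correction for GC content and length, 41 without mice 65 and 68, and 23 (without mouse 61) to 88 with 1 mouse left out, among them 53 without mouse 66 and 39 without mouse 68; the cause was not tested. Between the sides Pdc turned to −0.0099 with the GC correction and Gucy2f to −0.00058 without mice 65 and 68. With 1 mouse left out the difference ran from −0.043 to 0.086 for Pdc, −0.048 to 0.0015 for Grk1, −0.11 to 0.013 for Rcvrn, −0.048 to 0.0055 for Slc24a1 and −0.012 to 0.086 for Guca1b. The correlation of Slc24a1 with the other members was 0.40 with TMM scaling, 0.34 with equal totals, 0.33 with the GC correction and −0.50 to 0.12 with 1 mouse left out, and that of Rgs9bp was −0.24 without mice 65 and 68 and −0.24 to 0.67 with 1 left out. Without mice 65 and 68 the ratios turned to 0.034 for Rgs9 to Gnb5 and 0.067 for Rgs9 to Gnat1. With 1 mouse left out Grk1 to Rcvrn ran from −0.012 to 0.089, Pdc to Gnat1 from −0.051 to 0.12, Rgs9 to Gnb5 from −0.091 to 0.011 and Rgs9 to Gnat1 from −0.054 to 0.031. Per kilobase of the longest transcript Grk1 was at 76.8, Guca1b at 60.3, Rgs9 at 57.1 and Gucy2e at 22.2 CPM. Of the values recomputed, 506 were marked as kept, 38 as moved and 22 as changed in sign. Differences and ratios were kept if direction and call stayed, and counts if they stayed close to the main count. Levels, sizes and correlations were kept if they moved by less than their spread. Spans between mice were kept if the call stayed, so those of Pdc and Slc24a1 that shrank without single mice were marked as kept. The call of a ratio could not change under the sign-flip test.

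With 5 mice an exact sign-flip test cannot go below 0.063. The members' limma intervals reach 0.24 log2 units in size, and they are not adjusted for the number of genes tested. Calls were made after adjustment over all tested genes. Differences between the sides up to that size, and also larger ones, may therefore have gone uncalled.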

Other observations

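In the cone activation list 5 of 9 genes had an unadjusted p under 0.05 between mice, beside 13.8% of all genes, and limma called 0 after adjustment. They were Pde6c (F-test adjusted p = 0.215 by limma), Gnat2 (0.236), Opn1sw (0.238), Gnb3 (0.286) and Gngt2 (0.31). Opn1sw, the short-wave opsin, had the widest span of them, 0.44 log2 units between mice 61 and 64. Gnat2, Gnb3, Gngt2 and Opn1sw all had their highest mean in mouse 61 and their lowest in mouse 64, and Pde6c had its highest in mouse 66 and its lowest in mouse 61. Of the 4 that did not pass 0.05, Opn1mw was highest in mouse 61 and lowest in mouse 65, Pde6h and Cnga3 were highest in mouse 66 and lowest in mouse 64, and Cngb3 was highest in mouse 68 and lowest in mouse 64.

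Neurod1, a transcription factor of photoreceptors, differed between fellow eyes by 0.21, 0.44, −0.32, −0.39 and 0.19 log2 units in mice 61, 64, 65, 66 and 68, the same signs as Pdc in 5 of 5 mice. Of the other listed genes Gngt1 (0.06, 0.15, −0.32, −0.37 and 0.09), Cnga1 (0.06, 0.04, −0.03, −0.03 and 0.01) and Pde6a (0.01, 0.00, −0.03, −0.04 and 0.03) had these signs too. With correction for GC content and length Neurod1 and Pde6a kept the signs of Pdc in 5 of 5 mice. Gngt1 then turned to −0.0058 in mouse 61 and Cnga1 to −0.017 in mouse 68. These genes were singled out after their values were seen.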
